A study of Mus musculus with 28 samples.

Results

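The mitochondrial ribosome is built from proteins that are made in the cytosol from nuclear genes and imported, and from ribosomal RNA that the mitochondrial genome encodes. Its small subunit (proteins named Mrps) binds the messenger and decodes it, and its large subunit (Mrpl) joins amino acids and lets the new chain out through a tunnel. It translates the mitochondrially encoded subunits of the respiratory chain, and respiration rises in mouse embryos around blastocyst formation. The genes described here are those whose symbol is Mrpl or Mrps followed by a number, with pseudogenes left out, and with at least 10 counts per 1000000 reads (CPM) in at least 3 embryos of the morula or the blastocyst table. They are 78 of 17995 genes in either table, 29 named Mrps and 49 named Mrpl. All 78 passed the filter in blastocysts and 77 in morulae, where Mrpl23 did not pass. By structure 26 of the proteins belong to the small and 51 to the large subunit, where Mrps18a and Mrps30 sit in the large subunit in spite of their names, and Mrps36 is known as a part of an enzyme complex and not of the ribosome.

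RNA was measured in 27 single mouse embryos of the CD1 strain, each a whole morula or a whole blastocyst. The deposited data are named E2.5 for morulae and E3.5 for blastocysts, read here as embryonic days. The series title concerns CTCF, a zinc finger protein that binds chromatin boundaries, and the change of metabolism between these stages. Blastocysts were labelled MZ_KO (n = 3), M_KO (n = 4), het (n = 4) and WT_flfl (n = 3), and morulae MZKO (n = 6), del (n = 4) and het (n = 3). These codes are not explained in the labels. In such designs M usually means that the maternal product is missing, and MZ that the zygotic product is missing as well. What del means, and which promoter drives any Cre, is not stated there. The titles also carry a prefix that MZ_KO and M_KO blastocysts share (C7), that het and WT_flfl blastocysts share (N89), that MZKO morulae have alone (C50), and that del and het morulae share (N2). Where the groups compared have different prefixes, prefix and group cannot be told apart.

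Read totals lay between 7377302 and 27883060 in blastocysts and between 12136606 and 20414013 in morulae, apart from del 6 with 1635553 reads. Ctcf itself lay between 2.92 and 4.22 CPM in MZ_KO blastocysts, against 53.2 to 89.4 CPM in M_KO, 55.1 to 78.9 CPM in het and 91.6 to 102 CPM in WT_flfl. In morulae it lay at 0 to 8.68 CPM in MZKO and 0 to 5.81 CPM in del, against 26.1 to 54.6 CPM in het. The blastocysts WT_flfl 1 and het 6 stood apart with blood transcripts at summed levels of 34483 and 31481 CPM, and the morulae MZKO 1 and het 1 with oviduct transcripts at 1932 and 1278 CPM and the lowest mean correlation with the other morulae (0.675 and 0.732). Both morulae also had the highest blood sums of their groups (4082 and 15500 CPM), and het 1 had 139.7 CPM of granulosa markers. All 6 blood markers had a row in blastocysts, with sums of 1638 to 7544 CPM in MZ_KO and 1261 to 3716 CPM in M_KO. Apart from het 6 and WT_flfl 1, the sums were 26.3 to 11578 CPM in het, highest in het 3, and 1013 to 1073 CPM in WT_flfl. Of 6 granulosa markers 5 had no row in blastocysts (Amh, Foxl2, Fshr, Has2 and Ptx3). The family's counts and medians in the 9 group comparisons are given with and without these embryos. The summed level of 4 trophectoderm markers was 3529 to 4662 CPM in MZ_KO, 4928 to 8833 CPM in M_KO, 4358 to 6944 CPM in het and 6470 to 6833 CPM in WT_flfl. That of 4 epiblast markers was 709 to 912 CPM in MZ_KO, 518 to 665 CPM in M_KO, 375 to 522 CPM in het and 479 to 604 CPM in WT_flfl. The part of such differences in cell makeup in the results below was not tested, and in whole embryos fewer cells of a type and less RNA per cell cannot be told apart.

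In MZ_KO blastocysts 3 genes went far beyond the rest of the family, Mrps2 and Mrpl23 downward and Mrps16 upward. Their promoters are shown because the largest differences lie at these genes and the study concerns a DNA-binding factor. Each runs from 250 bases before to 50 after a RefSeq transcription start on GRCm38.p6, 5′ to 3′ on the strand of the gene. Mrps2 is on the plus strand at chr2:28467816-28468115, Mrps16 on the minus strand at chr14:20393441-20393740 and Mrpl23 on the plus strand at chr7:142532782-142533081.
Mrps2: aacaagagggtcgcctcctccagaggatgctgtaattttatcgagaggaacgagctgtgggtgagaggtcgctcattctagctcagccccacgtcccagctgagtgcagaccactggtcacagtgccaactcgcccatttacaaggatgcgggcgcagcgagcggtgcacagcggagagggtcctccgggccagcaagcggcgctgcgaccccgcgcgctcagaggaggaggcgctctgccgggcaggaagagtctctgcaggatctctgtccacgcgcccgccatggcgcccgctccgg
Mrps16: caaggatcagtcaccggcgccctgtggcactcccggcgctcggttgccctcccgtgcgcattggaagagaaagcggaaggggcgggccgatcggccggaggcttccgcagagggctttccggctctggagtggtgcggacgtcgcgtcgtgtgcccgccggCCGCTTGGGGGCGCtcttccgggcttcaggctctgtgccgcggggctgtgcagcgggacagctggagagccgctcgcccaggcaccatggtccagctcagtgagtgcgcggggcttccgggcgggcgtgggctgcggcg
Mrpl23: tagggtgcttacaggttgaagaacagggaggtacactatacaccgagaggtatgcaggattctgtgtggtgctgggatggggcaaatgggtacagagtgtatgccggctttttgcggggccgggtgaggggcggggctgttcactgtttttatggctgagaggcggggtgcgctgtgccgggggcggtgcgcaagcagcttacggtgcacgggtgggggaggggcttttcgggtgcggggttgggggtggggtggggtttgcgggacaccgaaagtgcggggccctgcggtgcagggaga
The capitals in the Mrps16 promoter mark a stretch of 14 bases, starting 89 bases before the start, that differs at 1 base from the 14-letter CTCF consensus, with unspecified letters ignored. In the Mrps2 and Mrpl23 promoters the closest stretches differed at 3 and 4 bases, and a second RefSeq start of Mrps16 also gave 4. Of 69 members with a promoter entry, 3 (4.35%) held a stretch within 1 mismatch on either strand, namely Mrps16, Mrpl17 and Mrpl39. The share was 1.55% of 27025 genes with an entry and 3.06% of those tested in blastocysts or morulae. This consensus was chosen after a search with a shorter form had been run, and a match in letters is a description and not a measured binding site.

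Mrps2, the small-subunit protein that corresponds to bacterial S2, was nearly lost from MZ_KO blastocysts. The gene (ENSMUSG00000035772) is found at chr2:28468066-28471178 (GRCm38, plus strand). Mrps2 measured 6.75, 17.8 and 4.42 CPM in the MZ_KO embryos, 100.3, 112.9, 115 and 139.7 CPM in M_KO, 80.1, 103.4, 125.9 and 124.3 CPM in het, and 143.5, 142.5 and 150.1 CPM in WT_flfl. Every MZ_KO embryo lay far below every embryo of the other groups. Of the MZ_KO embryos only that at 17.8 CPM reached 10 CPM. Mrps2 thus passed the filter through the other groups, and a low level in MZ_KO could only show as a fall. The log2 fold change was −3.98 against WT_flfl (SE 0.33, adjusted p = 1.37e-06), −3.54 against het (SE 0.31, adjusted p = 1.87e-06) and −3.66 against M_KO (SE 0.31, adjusted p = 1.17e-06).

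Mrps16, the counterpart of bacterial S16, whose human gene is linked to mitochondrial disease, went the other way. The gene (ENSMUSG00000049960) lies at chr14:20389304-20393634 on the minus strand. It stood at 218.8, 192.9 and 163 CPM in MZ_KO, at 56.2, 54.8, 65.6 and 54.7 CPM in M_KO, at 38.4, 53.3, 44.3 and 60.4 CPM in het, and at 56.5, 37.8 and 70.8 CPM in WT_flfl. The lowest MZ_KO embryo was above the highest embryo of every other group. The log2 fold change was 1.82 against WT_flfl (SE 0.24, adjusted p = 1.28e-04), 1.95 against het (SE 0.22, adjusted p = 2.80e-05) and 1.71 against M_KO (SE 0.22, adjusted p = 1.21e-04).

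Mrpl23 is the counterpart of bacterial L23 at the mouth of the exit tunnel. Per kilobase of merged exons, it had the lowest level of all members in het embryos. The gene (ENSMUSG00000037772) lies at chr7:142532686-142540747 on the plus strand. It stood at 0.833, 0 and 2.95 CPM in MZ_KO, at 12.9, 16.2, 14 and 8.14 CPM in M_KO, at 8.62, 18.8, 12.8 and 11.8 CPM in het, and at 13.2, 16.9 and 17 CPM in WT_flfl. It passed the filter through the 3 groups other than MZ_KO, so a low level in MZ_KO could only show as a fall. The log2 fold change was −3.10 against WT_flfl (SE 0.52, adjusted p = 0.00111), −2.81 against het (SE 0.49, adjusted p = 0.00118) and −2.80 against M_KO (SE 0.49, adjusted p = 0.00164), on a scale that understates the change of low genes. All 3 genes kept their call in these 3 comparisons under every alternative that was run.

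**Figure D1:**
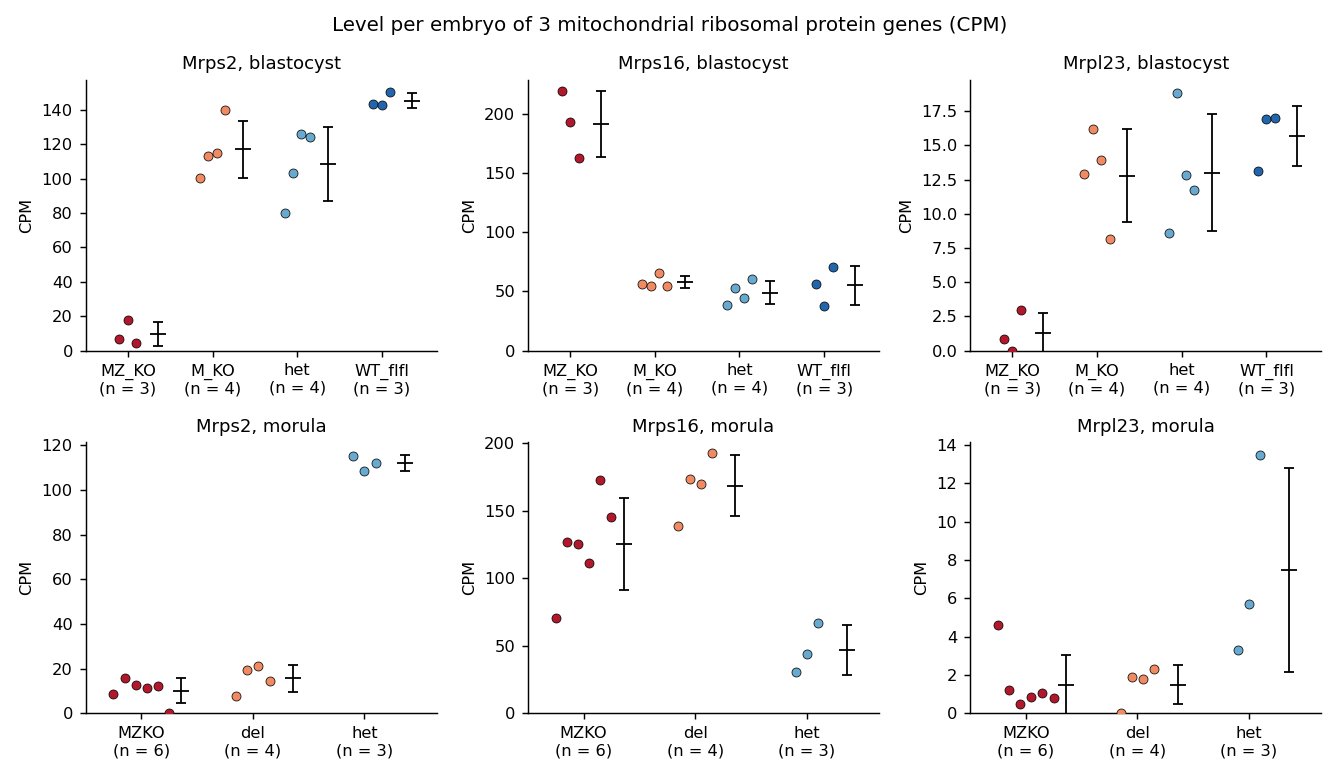
Level per embryo of Mrps2, Mrps16 and Mrpl23 in CPM (vertical axes, from 0) by group in blastocysts (upper row) and morulae (lower row), with 1 point per embryo and the mean and SD beside them. The MZ_KO blastocysts lie between 4.42 and 17.8 CPM for Mrps2, against 80.1 to 150.1 CPM in the other blastocysts, and the MZKO and del morulae lie below the het morulae for Mrps2 and above them for Mrps16.

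Mrpl23 could not be fully told from a pseudogene. Of its 50-base windows 51.7% also occur in Mrpl23-ps1, a processed pseudogene elsewhere in the genome. In every M_KO, het and WT_flfl embryo Mrpl23-ps1 had a higher CPM than Mrpl23. It stood at 5.67, 0 and 1.143 CPM in MZ_KO, at 26.5 to 58 CPM in M_KO, 34.3 to 60.4 CPM in het and 54.4 to 67.4 CPM in WT_flfl. It was lower in MZ_KO by a log2 fold change of −4.64 against WT_flfl (adjusted p = 2.24e-05), −4.35 against het (adjusted p = 1.65e-05) and −4.19 against M_KO (adjusted p = 3.02e-05). The sum of both was 3.53 ± 3.29 CPM in MZ_KO and 75.6 ± 7.55 CPM in WT_flfl (SD, n = 3 each), with a log2 fold change of −4.50 (adjusted p = 4.54e-05). Like Mrpl23, the pseudogene and the sum passed the filter only through groups other than MZ_KO. A low level in MZ_KO could therefore only show as a fall. How the reads divide between the gene and the pseudogene is therefore uncertain, while the fall of their sum is not affected by that division. Mrps2 shared none of its windows with another gene and Mrps16 shared 3.01% of them. Over the family, 39 members shared none with genes elsewhere, meaning genes that do not overlap them. Some of these shared windows with an overlapping gene, among them Mrpl53 (100%) and Mrps34 (52.4%). Another 13 members shared over 10% with genes elsewhere, among them Mrpl27 (35.4%) and Mrpl22 (33.4%).

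In het embryos the members covered a wide range of levels. Per kilobase of merged exons, Mrpl12, a stalk protein that is also known to bind the mitochondrial RNA polymerase, had the highest mean level in het blastocysts (182 CPM per kb), before Mrps18b (175), Mrpl18 (166), Mrpl28 (141) and Mrpl2 (129 CPM per kb). The lowest were Mrpl13 (10), Mrpl16 (9.91), Mrps25 (7.72), Mrpl48 (5.57) and Mrpl23 (2.66 CPM per kb). Mrpl12 averaged 278 ± 39.5 CPM and Mrps18b 365 ± 67.3 CPM over the 4 het blastocysts (SD), so the gap between their levels per kilobase is smaller than their spread, and the same holds at the low end for Mrpl13 (79.4 ± 10.8 CPM) and Mrpl16 (31.4 ± 5.73 CPM). In het morulae Mrpl22, which lines the exit tunnel, came first (306 CPM per kb), before Mrps18b (239), Mrpl12 (129), Mrpl28 (119) and Mrpl18 (115 CPM per kb), and Mrps25 (7.61), Mrps10 (7.36), Mrps35 (6.65), Mrps30 (3.47) and Mrpl23 (1.53 CPM per kb) came last. Nearest to the filter were Mrpl23 itself, with 9 blastocysts but 1 morula at 10 CPM or more, Mrps30, with 7 morulae, and Mrps2, with 12 blastocysts and 10 morulae. The genes lay on 17 chromosomes with at most 11 on any of them, and 32 of the 78 are overlapped by another gene with a row. This overlap was counted over whole gene bodies, introns included. Because the libraries carry no strand information, the counts of such genes are uncertain where their transcripts share sequence with the overlapping gene.

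The first comparison of the family asks what differs between MZ_KO and WT_flfl blastocysts. Besides Mrps16, 5 members rose modestly, namely Mrpl22, Mrpl55, Mrps22, Mrpl27 and Mrpl51, and no member other than Mrps2 and Mrpl23 fell. In all 6 of 78 members rose (7.69%), where 4.84% of all 9585 genes tested rose, and 2 fell (2.56%), where 8.36% of all genes fell. With both directions 10.3% of the members and 13.2% of all genes were called. The median log2 fold change of the members was 0.22, against −0.05 for all genes tested, and 65 of 78 members were above 0. By subunit, 2 of 26 small-subunit genes rose and 1 fell, with a median of 0.15, and 4 of 51 large-subunit genes rose and 1 fell, with a median of 0.28.

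Mrpl22 had the largest of these modest rises and the widest spread. It stood at 304.1, 265.7 and 162.1 CPM in MZ_KO against 148.3, 108.3 and 144.6 CPM in WT_flfl (log2 fold change 0.83, SE 0.22, adjusted p = 0.0227). Mrpl51, a large-subunit protein with no bacterial counterpart, stood at 278.3, 234 and 241.7 CPM in MZ_KO against 155, 171 and 199.1 CPM in WT_flfl (0.52, SE 0.15, adjusted p = 0.0269). For both genes the groups did not overlap, but they had been picked by their p-values in this comparison. Mrpl55 stood at 195.9, 150.4 and 162.8 CPM in MZ_KO against 124.4, 98.6 and 106.3 CPM in WT_flfl (0.62, SE 0.18, adjusted p = 0.0304). Mrpl27, whose bacterial counterpart reaches into the catalytic centre, stood at 129.9, 128.9 and 122 CPM in MZ_KO against 83.3, 90.8 and 80.3 CPM in WT_flfl (0.58, SE 0.18, adjusted p = 0.0398). Mrps22, a small-subunit protein with no bacterial counterpart, stood at 95.9, 95.9 and 113.4 CPM in MZ_KO against 64.5, 66.8 and 71.9 CPM in WT_flfl (0.58, SE 0.18, adjusted p = 0.0477). All these rises were smaller than that of Mrps16, and none of the 5 kept its call under every alternative. A gene on the other strand overlaps Mrpl27 and Mrps22. Mrpl27 shared 39.0% of its windows with other genes, so its reads are uncertain, while Mrps22 shared none. Mrps36, which is no ribosomal protein, gave −0.20 (adjusted p = 0.615). Without WT_flfl 1 and het 6 the calls were 3 higher and 2 lower, and the members' median was 0.19. Over all genes the calls also fell, from 1265 to 787.

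Against het blastocysts more members were called. In MZ_KO 14 of 78 members rose (17.9%), where 7.02% of all genes tested rose, and 2 fell (2.56%), where 10.8% of all genes fell; together 20.5% of the members and 17.9% of all genes were called. The members' median log2 fold change was 0.31, against −0.06 for all genes, and 69 of 78 members were above 0. Of 26 small-subunit genes 3 rose and 1 fell (median 0.20), and of 51 large-subunit genes 11 rose and 1 fell (median 0.39). These medians are descriptions, and the difference between the subunits was not tested.

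Mrpl22 again led the rises after Mrps16, with 304.1, 265.7 and 162.1 CPM in MZ_KO against 100.7, 126.8, 92.4 and 134 CPM in het (1.06, SE 0.21, adjusted p = 0.00258). Mrpl35, a large-subunit protein with a bacterial counterpart, stood at 203.6, 160.7 and 165 CPM in MZ_KO against 114.7, 131, 95.3 and 85.8 CPM in het (0.73, SE 0.16, adjusted p = 0.00566). Mrpl51 stood at 278.3, 234 and 241.7 CPM in MZ_KO against 164.8, 172.2, 146.5 and 172.4 CPM in het (0.61, SE 0.14, adjusted p = 0.00615). These 3 rises, like the changes of Mrps2, Mrps16 and Mrpl23, were called under every alternative run. Mrps18a, a relative of bacterial S18 that sits in the large subunit, stood at 212.5, 153.6 and 153.4 CPM in MZ_KO against 122.8, 127.5, 95.5 and 111.6 CPM in het (0.59, adjusted p = 0.0182). Mrpl48, a large-subunit protein, stood at 83.8, 62.6 and 77.4 CPM in MZ_KO against 41.8, 41.7, 53.7 and 44.5 CPM in het (0.70, adjusted p = 0.0190). In each of these 5 genes every MZ_KO embryo was above every het embryo, but they had been picked by their p-values in this comparison.

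The other 8 rises against het were of similar size. Mrps12, whose bacterial counterpart lies in the decoding centre, rose by 0.58 (adjusted p = 0.0252), Mrpl19 by 0.49 (0.0291), Mrps28 by 0.62 (0.0299), Mrpl21 by 0.67 (0.0333) and Mrpl18 by 0.40 (0.0339). Mrpl55 rose by 0.53 (adjusted p = 0.0367), Mrpl27 by 0.52 (0.0379) and Mrpl58, a hydrolase that frees stalled chains, by 0.56 (0.0453). The reads of Mrpl18, Mrpl19, Mrpl21, Mrpl27, Mrpl48, Mrpl58 and Mrps18a are uncertain because a gene on the other strand overlaps each of them. Without WT_flfl 1 and het 6 the calls against het were 5 higher and 2 lower, with a members' median of 0.26. Over all genes the calls also fell, from 1711 to 1013. Without MZ_KO 2, the embryo with the highest summed level of the family, 6 members were called in all. Calls over all genes without MZ_KO 2 are not given here.

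MZ_KO and M_KO blastocysts share the title prefix. Here 3 of 78 members rose (3.85%), where 3.74% of all genes tested rose, and 2 fell (2.56%), where 8.09% of all genes fell; together 6.41% of the members and 11.8% of all genes were called. Beside Mrps16, the members that rose were Mrps22, at 95.9, 95.9 and 113.4 CPM in MZ_KO against 74.2, 63, 59.2 and 73.1 CPM in M_KO (0.59, SE 0.17, adjusted p = 0.0353), and Mrpl35, at 203.6, 160.7 and 165 CPM in MZ_KO against 123.6, 118.3, 114.9 and 120.1 CPM in M_KO (0.55, SE 0.16, adjusted p = 0.0353). In both genes the groups did not overlap, but they too had been picked by their p-values in this comparison. Mrpl35 was no longer called when any of the 7 embryos was left out, and Mrps22 when any of 5 of them was. The members' median was 0.13, against −0.03 for all genes, and 56 of 78 members were above 0. Without WT_flfl 1 and het 6 the calls were 2 higher and 2 lower, with the same median of 0.13. Over all genes the calls also fell, from 1133 to 932.

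Among the other blastocyst groups limma called no member. M_KO against WT_flfl gave 0 of 78 members and 0.0% of all genes tested, with 1 member and 494 of all 9585 genes at an unadjusted p under 0.05. The members' median was 0.10, against −0.01 for all genes. Without WT_flfl 1 and het 6 that median was 0.0439, with 51 of 78 members above 0. M_KO against het gave 0 members and 0.0% of all genes. In that comparison 9 of 78 members had an unadjusted p under 0.05, all higher in M_KO. Of all 9585 genes 638 had one, 304 of them higher. There 67 of 78 members were above 0, with a median of 0.18 against 0.00114 for all genes, and the groups differ in title prefix. Without WT_flfl 1 and het 6 the median was 0.128, with 61 of 78 above 0. Het against WT_flfl gave 0 members and 0.0% of all genes, with 0 members and 187 of all 9585 genes at an unadjusted p under 0.05. Here 21 of 78 members were above 0, with a median of −0.11. Without WT_flfl 1 and het 6 this median was −0.0812, with 25 above 0. Without these embryos limma again called 0 members in all 3 comparisons. Over all genes it called 1 in M_KO against WT_flfl and 0 in the others. Mrps2 lay lower in both groups than in WT_flfl without overlap, by 0.32 in M_KO (adjusted p = 0.974) and by 0.44 in het (adjusted p = 0.999) on the log2 scale, and neither difference passed the test. Mrps16 gave 0.11 in M_KO against WT_flfl (SE 0.22, adjusted p = 0.991) and Mrpl23 gave −0.30 (SE 0.49, adjusted p = 0.987).

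**Figure D2:**
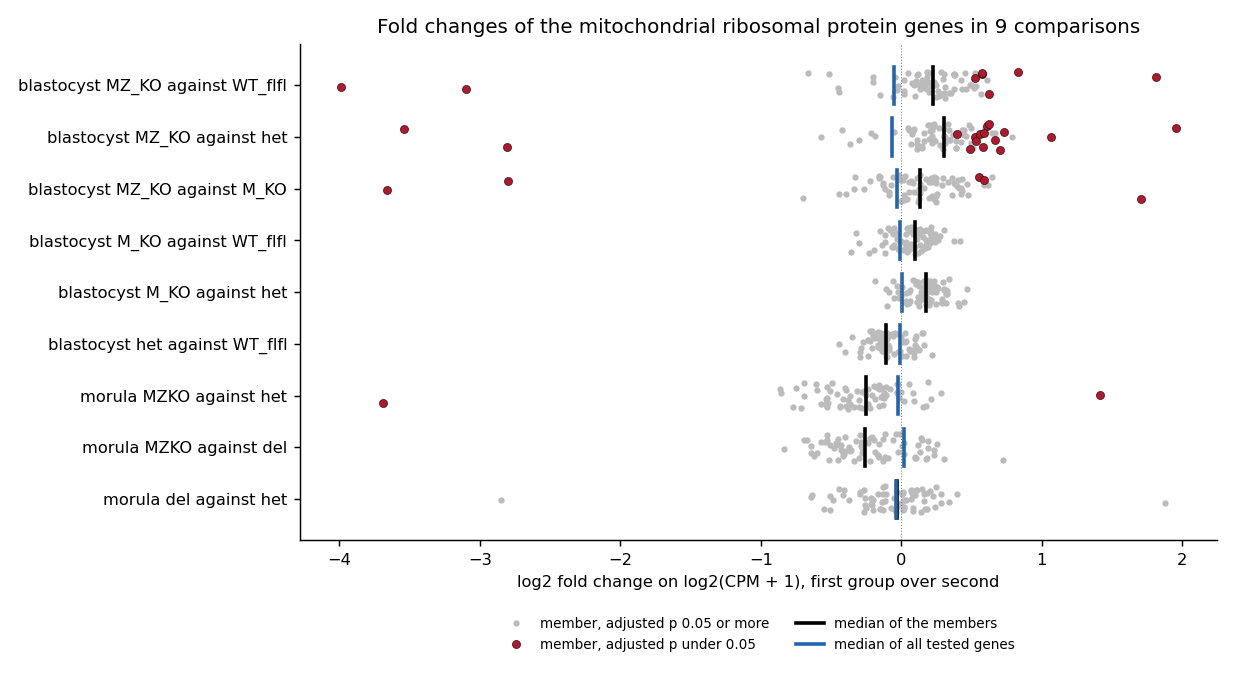
Log2 fold change on log2(CPM + 1) (horizontal axis) of each member, 1 point per gene, in 9 comparisons (rows, first group over second). Red points passed an adjusted p of 0.05, and the bars mark the median of the members (black) and of all genes tested (blue). Most members form a band near 0 with a median of 0.31 in MZ_KO against het blastocysts and −0.25 in MZKO against het morulae, and Mrps2, Mrps16 and, in blastocysts, Mrpl23 stand far outside it where MZ_KO, MZKO or del is set against another group with higher Ctcf.

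In morulae the same pair of small-subunit genes stood out. Mrps2 ranged from 0.236 to 15.8 CPM in the 6 MZKO embryos with a median of 12, and stood at 7.58, 19.6, 21.2 and 14.5 CPM in del, against 115.5, 108.6 and 112.4 CPM in het. Every MZKO and del embryo was below every het embryo. The log2 fold change of MZKO against het was −3.69 (SE 0.68, adjusted p = 0.0111). It no longer passed without het 1 (0.0507), het 5 (0.0638) or het 7 (0.0843), and without MZKO 1 and het 1 together (0.0598). For del against het it was −2.85 (SE 0.73), which did not pass (adjusted p = 0.572).

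Mrps16 ranged from 70.7 to 172.5 CPM in MZKO with a median of 126, and stood at 138.2, 173.6, 169.5 and 192.2 CPM in del, against 30.6, 43.9 and 66.9 CPM in het. The MZKO and the del embryos were all above the het embryos. The log2 fold change of MZKO against het was 1.41 (SE 0.31, adjusted p = 0.0479), a call lost without any of 7 of the 9 embryos, with adjusted p-values up to 0.147. That of del against het was 1.88 (SE 0.33, adjusted p = 0.114), which passed after rescaling by medians of ratios (0.0397) and with array weights (0.0115). MZKO and del overlapped for both genes, with log2 fold changes of −0.84 for Mrps2 (adjusted p = 0.755) and −0.46 for Mrps16 (adjusted p = 0.703). Mrpl23, not tested here, ranged from 0.469 to 4.61 CPM in MZKO with a median of 0.948, and stood at 0, 1.91, 1.8 and 2.32 CPM in del, against 3.29, 5.71 and 13.5 CPM in het. The sum of Mrpl23 and Mrpl23-ps1 was 11.8 ± 11.5 CPM in MZKO (n = 6) and 7.07 ± 3.28 CPM in del (n = 4), against 27.5 ± 8.10 CPM in het (SD, n = 3). It did not pass in the test by limma, with a log2 fold change of −1.43 for MZKO against het (SE 0.64, adjusted p = 0.547) and −1.90 for del against het (SE 0.69, adjusted p = 0.770).

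Over the family, 1 of 77 members rose and 1 fell in MZKO against het morulae, which is 2.6% of the members where 0.482% of all 9953 genes tested were called (0.412% higher and 0.0703% lower). The members' median was −0.25, against −0.02 for all genes, and 11 of 77 members were above 0. Without MZKO 1 and het 1 the median was −0.42, with 7 of 77 above 0, and the calls were 1 higher and 0 lower. Over all genes 55 were called without them and 48 with them. MZKO against del gave 0 of 77 members by limma, where 0.181% of all genes were called (0.141% higher and 0.0402% lower). At an unadjusted p under 0.05 by limma stood 3 of 77 members and 821 of all 9953 genes. The members' median was −0.26, with 19 of 77 above 0. Without MZKO 1 and het 1 this median was −0.15, with 23 of 77 above 0. Del against het gave 0 members by limma, where 0.01% of all genes were called. At an unadjusted p under 0.05 by limma stood 2 of 77 members (Mrps2 and Mrps16) and 503 of all 9953 genes. The members' median was −0.03, with 35 of 77 above 0. This median rests on het 1: without MZKO 1 and het 1 it was −0.302, against −0.0808 for all genes, with 14 of 77 above 0 and 0 members called by limma in both of these comparisons. Over all genes limma then called 19 in MZKO against del and 4 in del against het.

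The knockout effect against het was then compared between the stages, as the effect in blastocysts minus the effect in morulae, each taken within its own table. For Mrps2 the difference was 0.14 (SE 0.78, adjusted p = 0.944) and for Mrps16 0.54 (SE 0.38, adjusted p = 0.487), and neither passed. For the rest of the family the difference leaned to blastocysts. Its median over 77 members was 0.63, against 0.01 over all 8572 genes tested. Above 0 were 73 of 77 members and 4329 of all genes. There were 59 members above 0 in blastocysts and below 0 in morulae, and all genes were not counted in this way. By limma 0 of 77 members passed, where 1.61% of all genes were called (0.63% higher and 0.98% lower). At an unadjusted p under 0.05 stood 25 of 77 members, all higher, and 1521 of all 8572 genes, 745 of them higher. The smallest adjusted p-values belonged to Mrpl48 (1.139, adjusted p = 0.0784), Mrpl22 (1.504, 0.0901) and Mrpl35 (1.13, 0.103). The count rests on het 1 among the morulae, without which 13 members passed. Calls over all genes without het 1 are not given here, so the 13 cannot be set against all genes. Stage and sequencing batch coincide, so the stages and the batches cannot be told apart.

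**Figure D3:**
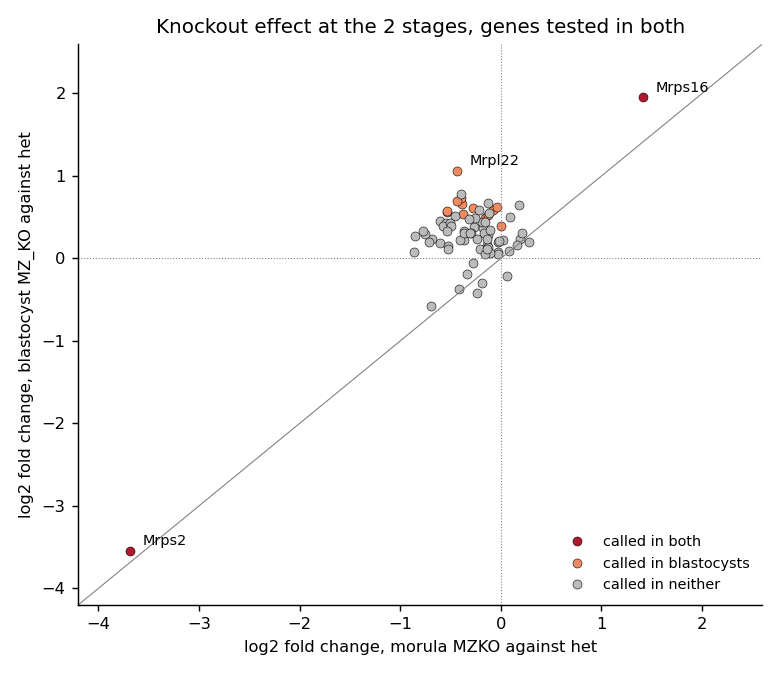
Log2 fold change of MZKO against het morulae (horizontal axis) and of MZ_KO against het blastocysts (vertical axis) for the 77 members tested in both tables, with the line of equal effect. Mrps2 and Mrps16, called at both stages, lie at the 2 ends near the line. In the upper left, above 0 in blastocysts and below 0 in morulae, lie 59 members. The share of all genes that lies there was not counted.

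The summed level of all members was 11517, 9532 and 9393 CPM in MZ_KO, between 8804 and 9638 CPM in M_KO, between 7276 and 8842 CPM in het and between 8335 and 9217 CPM in WT_flfl. The 3 MZ_KO embryos were above all het and all WT_flfl embryos and overlapped with M_KO. Small-subunit genes summed to 2846 ± 383 CPM in MZ_KO, 2772 ± 70.9 CPM in M_KO, 2544 ± 208 CPM in het and 2646 ± 171 CPM in WT_flfl. Large-subunit genes summed to 7263 ± 801 CPM in MZ_KO, 6397 ± 285 CPM in M_KO, 5603 ± 513 CPM in het and 5954 ± 331 CPM in WT_flfl (SD, n = 3, 4, 4 and 3). Per kilobase, the summed small-subunit level was 0.387 to 0.404 of the large-subunit level in MZ_KO, 0.409 to 0.444 in M_KO, 0.429 to 0.449 in het and 0.419 to 0.44 in WT_flfl. Without Mrps2, Mrps16 and Mrpl23 these ratios were 0.366 to 0.386 in MZ_KO, 0.39 to 0.427 in M_KO, 0.408 to 0.428 in het and 0.398 to 0.416 in WT_flfl, so the MZ_KO embryos stayed below the others with the 3 extreme genes left out. In morulae the sum lay between 4562 and 8109 CPM in MZKO, between 6557 and 8177 CPM in del, and at 5283, 8243 and 9951 CPM in het. All 3 groups overlapped, and MZKO 1 and het 1, which carried most oviduct transcripts, had the lowest sums.

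**Figure D4:**
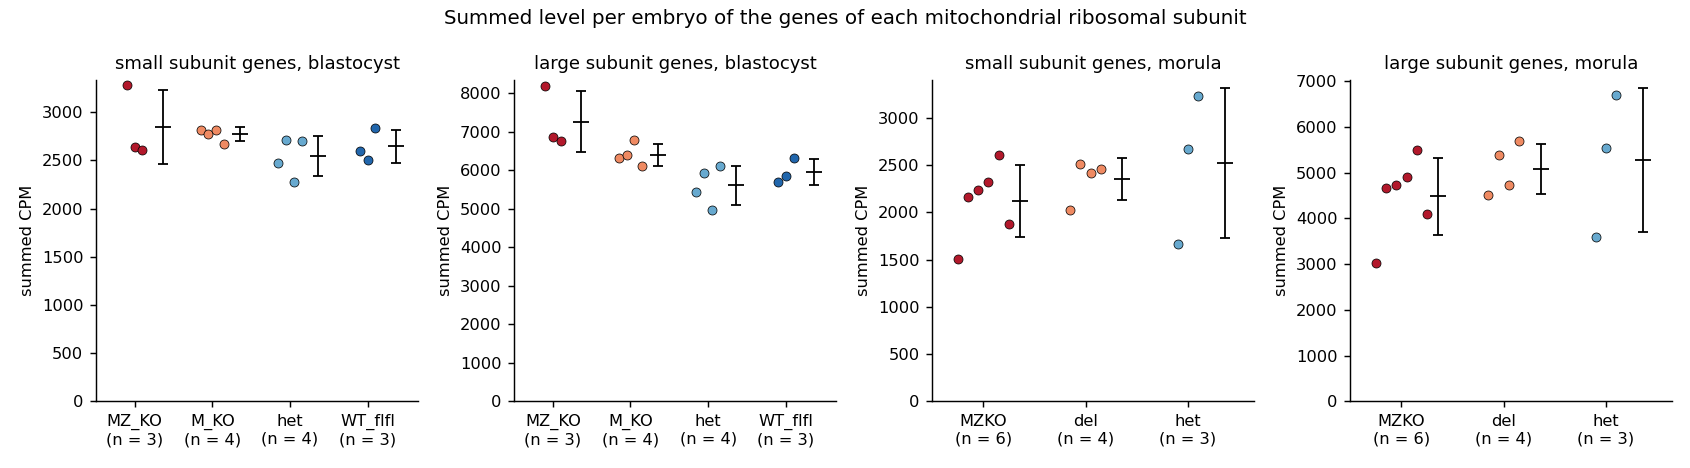
Summed CPM per embryo (vertical axes, from 0) of the small-subunit and the large-subunit genes by group in blastocysts (left pair) and morulae (right pair), with 1 point per embryo and the mean and SD beside them. Large-subunit sums average 7263 CPM in MZ_KO against 5954 CPM in WT_flfl blastocysts, small-subunit sums overlap between all blastocyst groups, and the morula groups overlap in both.

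The genes next to the 3 extreme members were examined for changes of the same kind. Dnajc9, a co-chaperone that also binds histones, lies on the same strand as Mrps16, with its body 393 bases beyond the 3′ end of Mrps16. It stood at 29.8, 25.5 and 27.3 CPM in MZ_KO, at 56.3 to 69.8 CPM in M_KO, at 52.2 to 69.4 CPM in het and at 81.8, 56.7 and 77.3 CPM in WT_flfl. Dnajc9 thus fell where Mrps16 rose, by 1.34 on the log2 scale against WT_flfl (SE 0.21, adjusted p = 6.27e-04), by 1.19 against het (adjusted p = 8.00e-04) and by 1.23 against M_KO (adjusted p = 7.27e-04). In morulae it gave −0.22 for MZKO against het (SE 0.39, adjusted p = 0.933), with 64.3 ± 19.5 CPM in MZKO and 80 CPM on average in het. On the other side of Mrps16, Anxa7 at 61625 bases gave −0.11 in MZ_KO against WT_flfl (adjusted p = 0.692). Next to Mrps2, 1700007K13Rik at 1733 bases gave 0.11 (adjusted p = 0.908) and Ralgds at 41946 bases gave −0.37 (adjusted p = 0.528). Mrpl23 had no tested protein-coding neighbour within 100000 bases in blastocysts, and in morulae Lsp1 at 37818 bases gave 1.82 in MZKO against het (SE 1.04, adjusted p = 0.683).

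**Figure D5:**
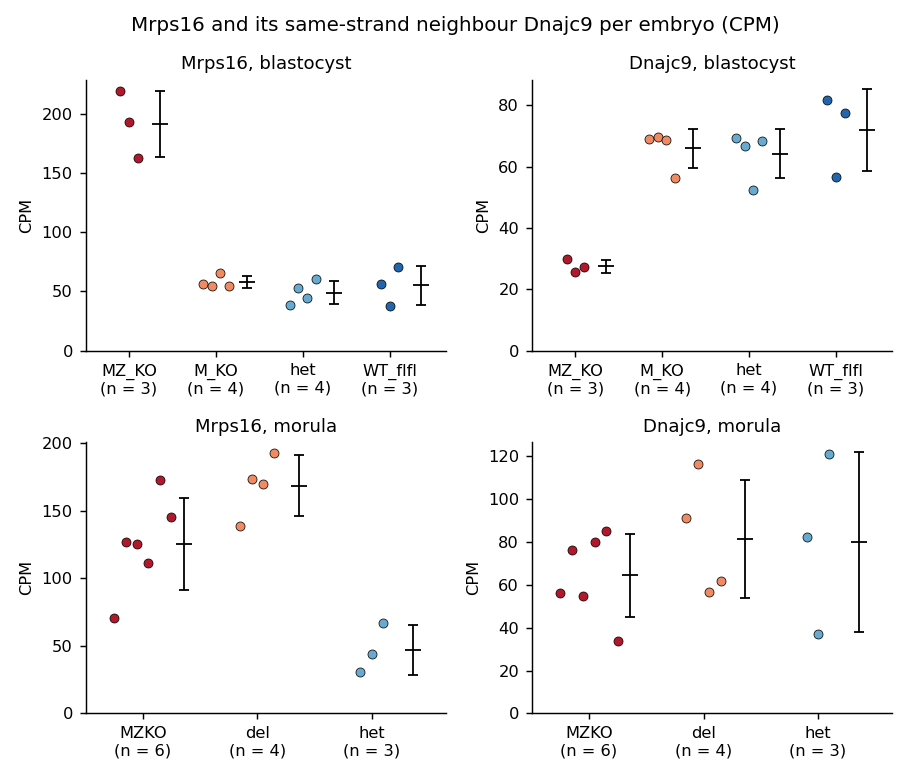
Level per embryo in CPM (vertical axes, from 0) of Mrps16 (left) and Dnajc9 (right) by group in blastocysts (upper row) and morulae (lower row), with 1 point per embryo and the mean and SD beside them. In MZ_KO blastocysts Mrps16 is above and Dnajc9 below every other embryo, while in morulae the Dnajc9 groups overlap.

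Other genes of mitochondrial translation were examined as lists written from textbook knowledge. Their counts in MZ_KO against WT_flfl stand beside 4.84% of all genes tested that rose and 8.36% that fell. Of 5 ribosomal subunits with other names, 2 fell and 0 rose in MZ_KO against WT_flfl, namely Ptcd3 of the small subunit (−0.59, adjusted p = 0.0426) and Gadd45gip1 of the large subunit (−0.58, adjusted p = 0.0454), and the list's median was −0.48. Of 27 assembly and ribosomal RNA factors 1 rose and 2 fell (median −0.09). These were the methyltransferase Mrm2 (0.96, adjusted p = 0.0240), and the methyltransferase Mrm1 (−3.27, adjusted p = 0.00110) and the helicase Dhx30 (−1.18, adjusted p = 0.00892). Mrm1 stood at 2.42 ± 2.10 CPM in MZ_KO and 27.7 ± 11.8 CPM in WT_flfl (SD, n = 3 each). It passed the filter only through groups other than MZ_KO, so a low level there could only show as a fall. Of 14 translation factors 0 rose and 3 fell (median 0.04), namely the elongation factors Gfm1 (−5.31, adjusted p = 2.19e-05) and Tsfm (−1.63, adjusted p = 0.00204) and the messenger-binding protein Lrpprc (−0.81, adjusted p = 0.0338). Against het, where 7.02% of all genes rose and 10.8% fell, 2 of 5 subunits with other names fell, 2 of 27 assembly factors rose and 4 fell, and 3 of 14 translation factors fell. Called there and not against WT_flfl were Mtif2, an initiation factor (−1.18, adjusted p = 0.0137), Mettl17 (−0.99, adjusted p = 0.0379) and Gtpbp10 (−1.84, adjusted p = 0.0285), which act in assembly, and the helicase Ddx28 (0.97, adjusted p = 0.0231), while Lrpprc did not pass (−0.57, adjusted p = 0.0880). Against M_KO, where 3.74% of all genes rose and 8.09% fell, 1 of 5 subunits with other names fell, 1 of 27 assembly factors rose and 4 fell, and 2 of 14 translation factors fell. The assembly factor Ngrn was called there alone (−1.35, adjusted p = 0.0464), while Ptcd3 (−0.36, adjusted p = 0.188), Lrpprc (−0.49, adjusted p = 0.171) and Mrm2 (0.34, adjusted p = 0.399) did not pass. In morulae 1 of 11 translation factors rose in MZKO against het, where 0.412% of all genes rose, namely Lrpprc with 1.38 (adjusted p = 0.0387). The mitochondrial ribosomal RNAs mt-Rnr1 and mt-Rnr2 gave −0.48 and −0.20 against WT_flfl (adjusted p = 0.425 and 0.652) and did not pass, and the libraries were made from polyadenylated RNA, so these values do not measure the whole pool of ribosomal RNA.

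Among known promoter motifs, each searched on both strands in the 69 promoters, the NRF1 motif (10 letters) occurred in 13 members (18.8%), against 5.19% of all genes with an entry and 12.6% of the tested genes. The ETS motif CCGGAAGT occurred in 12 members (17.4%, against 4.31% and 10.3%) and the YY1 motif AANATGGCG in 11 (15.9%, against 2.76% and 6.86%). A 12-letter short form of the CTCF motif occurred in 10 members (14.5%, against 9.84% of all genes and 15.2% of the tested genes), among them Mrpl22 and Mrpl48. None of these 4 motifs occurred in the promoters of Mrps2, Mrps16 and Mrpl23, which says only that these letters are not in these windows. The median share of G and C was 58.7% in the members' promoters and 52.7% in all promoters.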

How the data were processed

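Single embryos were sequenced from polyadenylated RNA with an ultra-low-input kit, per the labels' protocols. cutadapt 1.14, Bowtie2 2.2.9 and RSEM 1.3.1 with GRCm38 and mm10 are named in the submitters' processing notes, with no roles. The authors deposited 1 table per stage of log2 counts per 1000000 reads (CPM), which from the values carry an offset of 0.5 reads; which tool made them is not stated in the labels. Subtracting the offset gave CPM, and 100.0% of values came out as whole reads within a tolerance of 0.01. The 28 labelled samples include 1 repeat library of het 3 that is not analysed here, which leaves 27. For blastocysts, 3 entries that name no mouse gene (up to 0.0113% of an embryo's reads) were left out.

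Groups were taken from the labels. Genes that reached 10 CPM in 3 or more embryos of the stage entered limma 3.58.1 (R 4.3.3) on log2(CPM + 1) with a variance trend, with all groups of a stage in 1 fit, two-sided, with Benjamini-Hochberg adjustment over all genes tested and a threshold of 0.05 and no minimum fold. Log2 fold changes are on that scale, which understates changes of low genes. The 9 group comparisons share embryos and are not independent of each other. Whether groups overlap was looked at for the members and other named genes only, so no share over all genes stands beside it. The design had been written for normalized values that are not on a log scale, and the same test was kept after conversion. The difference between stages was tested in 1 fit over the genes passing in both tables. Each embryo is 1 sample; the labels do not say which embryos share parents, so p-values measure the spread between embryos. No 2 libraries of a group agreed within sampling noise (chi-square per degree of freedom 35.3 or more). Read totals between 1635553 and 27883060 limit the precision of low genes such as Mrpl23.

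The members, the lists and the named genes were chosen with earlier results of these data known. The genes named are Mrps2, Mrps16 and Mrpl23, the members called in a comparison (up to 6 in each direction with full values), the 5 highest and 5 lowest per kilobase, those nearest to the filter, the nearest tested protein-coding neighbours within 100000 bases, and the called genes of the other lists; the translation factors, Mrps36 and Mrpl23-ps1 were added after their values were seen. Alternatives were no filter, another pseudocount, rescaling, no variance trend, array weights, a fit of the compared groups alone, a block for embryo number, and leaving out embryos. The fit was tested on simulated data. Coordinates are from GENCODE M21 (GRCm38), which matched 15575 of 15582 genes in blastocysts and 16731 of 16745 in morulae, and promoters are from RefSeq GRCm38.p6. Shared windows are stretches of 50 bases of a member's protein-coding transcripts that occur, on either strand, in a transcript of another gene.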

Additional observations from a re-analysis of the deposited data

Results flagged for a closer look

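Of 76 groups of member or related genes checked, 5 held an embryo that lay apart from its group by Dixon's criterion, and chance gives about 1 in 20. Mrps16 stood at 65.63 CPM in the blastocyst M_KO 4, with the other M_KO embryos between 54.67 and 56.15 CPM. Mrps12 stood at 134.3 CPM in the blastocyst het 8, with the others between 92.86 and 99.7 CPM. The other 3 were all in the morula MZKO 1, the one with the most oviduct transcripts of its group. There Mrpl23 stood at 4.607 CPM (others 0.4692 to 1.215 CPM), Mrpl23-ps1 at 30.32 CPM (others 4.657 to 9.404 CPM) and Mrps22 at 38.57 CPM (others 66.95 to 78.27 CPM).

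The knockout effect against het differed between the stages for 3 related genes, by a test of the difference itself with limma. Gfm1 gave −4.526 for blastocysts minus morulae (adjusted p = 0.00120), Mrpl23-ps1 gave −3.202 (adjusted p = 0.0309) and Lrpprc gave −1.955 (adjusted p = 0.00511). Of the effects behind that difference, Lrpprc gave −0.57 in MZ_KO against het blastocysts, which did not pass by limma (adjusted p = 0.0880), and 1.38 in MZKO against het morulae (adjusted p = 0.0387). Stage and sequencing batch cannot be told apart here.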

How the results depend on the processing

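Calls over all genes are given above only for the main fit and for the pairs of embryos left out. In the other settings a change of the members' count may hold for all genes as well. In MZ_KO against WT_flfl blastocysts 8 members were called, and 4 without the trend, 3 with only the groups compared and 5 without WT_flfl 1 and het 6. Against het 16 were called, and 7 with only the groups compared and 7 without WT_flfl 1 and het 6. Against M_KO 5 were called, and 3 with only the groups compared. In MZKO against het morulae 2 were called, and 1 with no filter, with no trend, with only the groups compared, and without MZKO 1 and het 1, an alternative chosen after seeing the data. In del against het the count was 1 after rescaling and with array weights, and for the difference between stages it was 1 after rescaling and 9 with array weights. Leaving out 1 embryo gave 3 to 6 against WT_flfl (3 without WT_flfl 7; 5 without MZ_KO 2, MZ_KO 6, WT_flfl 1 or WT_flfl 9), 6 to 16 against het (6 without MZ_KO 2, 7 without het 6, 9 without MZ_KO 7, 10 without het 3), 3 to 5 against M_KO (3 without MZ_KO 6 or M_KO 4), 0 to 2 in morulae (0 without het 1 or het 5) and 0 to 13 for the difference between stages (13 without the morula het 1). Values that did not pass changed sign for Mrps2 between stages (−0.34 with array weights; −0.42 to 0.527 with 1 embryo left out, negative without the blastocyst MZ_KO 6, −0.37, or the morula MZKO 8). They did so for Mrps2 in M_KO against het (−0.0155 to 0.1996 with 1 embryo left out) and for Mrpl23 in M_KO against het (−0.175 to 0.175, positive without M_KO 5 or het 5). Mrps16 gave −0.13 to 0.312 in M_KO against WT_flfl and −0.38 to 0.0646 in het against WT_flfl. The causes were not tested. With the embryo number as a replicate block the count was 0 in MZKO against del and 0 in M_KO against het, as without it. Deviations of same-numbered embryos correlated between −0.144 and 0.14. With 4 shared numbers in morulae and 2 in blastocysts, this cannot exclude a pairing. The same-numbered embryos of these groups carry different title prefixes. Groups of 3 to 6 embryos and, for Mrpl23, few reads limit the precision.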
